A study of Mus musculus with 2 samples.

Results

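The nuclear lamina is a mesh of lamin filaments under the inner membrane of the nucleus, and the LINC complex is the bridge of SUN and nesprin proteins that couples that mesh to the cytoskeleton. Transcripts of 10 genes, chosen by name, were followed here in cultured mouse vascular smooth muscle cells (VSMCs), out of 32285 genes counted. They are the lamin genes Lmna, Lmnb1 and Lmnb2, the inner nuclear membrane genes Lbr, Emd and Tmpo, the LINC genes Sun1 and Sun2, the prelamin A protease gene Zmpste24, and Hmgb2, which encodes a chromatin protein and is neither a lamina nor a LINC gene. All 10 were detected, and 8 reached 10 CPM (a gene's UMIs per 1000000 UMIs) over the cells assigned to a group, while Lmnb2 at 5.6 CPM and Sun2 at 9.99 CPM did not. The study compared young VSMCs (mice of 12 weeks), old VSMCs (58 to 78 weeks), young VSMCs given 100 nM angiotensin II (AngII) for 48 h, and old VSMCs transfected with siRNA against the mechanosensitive channel gene Piezo1 (20 nM siRNA per the labels and methods, while the study's results text gives a different concentration). All were primary aortic cells of C57BL/6 mice bought from vendors, grown on 6-well plates for no more than 3 passages. The study describes old control cells as given non-targeting siRNA where it compares Piezo1 protein, and does not repeat this for the cells of this library. Each group was stained with an antibody carrying a DNA tag (a hashtag), the cells were mixed, and 1 droplet library was made with unique molecular identifiers (UMIs), so that each RNA molecule was counted once.

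Cells were barcodes with at least 2218 gene UMIs and at least 200 genes, and 13045 of 2472397 barcodes passed, with a median of 7915 UMIs. A hashtag was called above 36, 52, 61 and 41 UMIs for tags 1 to 4. Of these cells, 6670 carried 1 tag, 5307 none and 1068 more than 1, and every cell held UMIs of both libraries. Tag 1 held 3144 cells, tag 2 497, tag 3 1500 and tag 4 1529, with 5577355 to 24120561 gene UMIs per tag. The groups are named after the numbers that stand next to each culture in a schematic of the study, where nothing says that these are the hashtags: young cells (tag 1), old cells (tag 2), young cells with AngII (tag 3) and the cells labelled siPiezo1 (tag 4). Piezo1, the targeted gene, was at 71.6, 89.6, 108 and 86.9 CPM in tags 1 to 4. The ratio of tag 4 to tag 2 was 0.969 (0.874 to 1.08), so Piezo1 does not bear out the last label. The study reports less Piezo1 in siPiezo1-treated than in old cells, in its single cells and by qRT-PCR. No such drop beyond counting error was seen between these tags, and the reason was not tested. No source tells replicate cultures apart, so each group is 1 culture, no test between groups was possible, and every interval below is a 95% interval of counting error only. The share of cells with Y-linked and no Xist UMIs was 54.1%, 19.5%, 55.5% and 13.8% in tags 1 to 4, and that with Xist and no Y-linked UMIs was 4.90%, 63.0%, 6.27% and 66.8%. Sex of the donor mice and age therefore cannot be told apart in the full comparison of tags 2 and 1. The same holds wherever tags 2 and 4 together lie apart from tags 1 and 3. Each tag also held cells of the other kind. The VSMC markers Acta2 (378, 568, 294 and 174 CPM in tags 1 to 4) and Tagln were present, while Myh11 was at 1.94 to 7.89 CPM. None of the 4 macrophage, 4 endothelial or 4 epithelial markers reached 10 CPM. Ptprc, Adgre1, Cdh5, Vwf, Epcam and Krt8 were at most 0.435 CPM. The others reached 8.62 CPM for Csf1r, 5.39 CPM for Kdr and 1.29 CPM for Cdh1, all in tag 1. Krt18 reached 5.20 CPM and Pecam1 3.94 CPM in tag 2, and Cd68 3.48 CPM in tag 3. Csf1r in tag 1 was thus above Myh11 there, at 5.27 CPM, and Kdr was close to Myh11.

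A-type lamins are made in differentiated cells and set much of the stiffness of the nucleus, whereas B-type lamins are made in nearly all cells. Loss of lamin B1 and of HMGB2 is a known feature of senescent cells, those that have stopped dividing for good. The genes of lamin B1, the lamin B receptor, LAP2 (Tmpo) and HMGB2 are also more active while a cell divides, when the envelope is taken apart and rebuilt. Cell division therefore has to be read beside age in these genes, and cells were split by whether they held any UMI of Mki67 (a marker of cycling cells) or Top2a (topoisomerase II alpha, made from S phase to mitosis).

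The promoters of many division genes carry a cell cycle homology region (CHR), CCAAT boxes or E2F sites. The 250 bases before each RefSeq start of these genes (GRCm38.p6) were read. Of the 10 genes, 9 had a window, and Lmna, Lmnb2, Tmpo and Sun1 had 2. By the gene spans given below, the printed windows of Tmpo and Lbr lie inside the gene, and that of Zmpste24 overlaps it. Letters searched on both strands were TTTGAA or TTCGAA for CHR, CCAAT, and TTTCCCGC or TTTGGCGC for E2F. They occur in 17.1%, 33.9% and 1.30% of the 32851 windows read. The 4 windows printed are those of Hmgb2, Tmpo and Lbr, which were among the genes that differed most between cells with and without division transcripts, and of Zmpste24, which did not differ. They are printed 5′ to 3′ on the strand of the gene, with the matched letters in capitals.
Hmgb2, chr8:57511593-57511842 (+): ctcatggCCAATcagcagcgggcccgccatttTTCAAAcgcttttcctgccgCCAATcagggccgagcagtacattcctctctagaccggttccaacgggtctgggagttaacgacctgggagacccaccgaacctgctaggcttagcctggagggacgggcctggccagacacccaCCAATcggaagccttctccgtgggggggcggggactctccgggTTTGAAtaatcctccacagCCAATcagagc
Tmpo, its window with a CHR match, chr10:91170551-91170800 (-): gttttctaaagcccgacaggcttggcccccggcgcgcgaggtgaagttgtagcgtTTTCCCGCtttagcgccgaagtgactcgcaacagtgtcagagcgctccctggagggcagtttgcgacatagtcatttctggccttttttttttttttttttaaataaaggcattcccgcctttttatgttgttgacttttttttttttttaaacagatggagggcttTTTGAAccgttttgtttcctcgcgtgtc
Lbr, chr1:181842402-181842651 (-): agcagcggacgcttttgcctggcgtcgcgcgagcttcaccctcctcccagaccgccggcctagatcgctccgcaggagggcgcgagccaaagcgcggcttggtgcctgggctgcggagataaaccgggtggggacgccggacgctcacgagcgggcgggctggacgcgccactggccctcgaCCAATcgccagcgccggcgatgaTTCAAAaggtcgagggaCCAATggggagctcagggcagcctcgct
Zmpste24, chr4:121098211-121098460 (-): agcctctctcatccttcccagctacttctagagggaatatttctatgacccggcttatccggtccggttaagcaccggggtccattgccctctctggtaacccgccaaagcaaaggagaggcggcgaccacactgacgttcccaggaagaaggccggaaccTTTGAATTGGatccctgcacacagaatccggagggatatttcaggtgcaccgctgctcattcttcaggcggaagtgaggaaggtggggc
The Hmgb2 window held CHR letters starting 218 and 30 bases before the gene's start and 4 CCAAT boxes, more of both than any other window of the 10 genes. The printed Tmpo window held CHR letters 28 bases before its start and the only E2F letters found among the members, at 195 bases. The other Tmpo window, further upstream, held 2 CCAAT boxes and neither CHR nor E2F letters. In the Lbr window CHR letters stood 45 bases before the start between CCAAT boxes at 68 and 28 bases. The Zmpste24 window also held CHR letters, at 89 bases, which share 1 base with a CCAAT box read on the other strand. The Sun2 window held CHR letters too, while those of Lmna, Lmnb2, Emd and Sun1 held none. Thus CHR letters stood before genes past 1.5-fold between the classes of cells over the 4 tags and before genes that were not. A match describes letters only, not a site in use.

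Lmna was the steadiest of the lamin genes across the groups. Lmna (chr3:88480147-88509956, GRCm38, minus strand) encodes lamins A and C, which 3′ counts cannot tell apart. Its level was 282 CPM (276 to 289) in young cells, 270 CPM (257 to 284) in old cells, 290 CPM (282 to 299) with AngII and 286 CPM (277 to 294) in the cells labelled siPiezo1. From the lowest to the highest level the order was old, young, siPiezo1 and AngII. Neighbours in that order did not differ beyond counting error, while AngII and old cells, at its ends, did, at a ratio of 1.07 (1.01 to 1.14). The old to young ratio was 0.957 (0.905 to 1.01).

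Lmnb1, the gene of lamin B1, showed the widest span of the lamins, highest with AngII and lowest in old cells. It was at 49.6 CPM (46.9 to 52.5) in young cells, 39.1 CPM (34.1 to 44.6) in old cells, 63.7 CPM (59.7 to 67.9) with AngII and 44.7 CPM (41.5 to 48.1) in the cells labelled siPiezo1. The old to young ratio was 0.788 (0.679 to 0.911) and the AngII to young ratio 1.28 (1.18 to 1.40), both beyond counting error. In contrast, the ratio of the cells labelled siPiezo1 to old cells, 1.14 (0.982 to 1.34), was within it. In cells where Y-linked but no Xist UMIs were found, which leaves 97 old cells against 1700 young ones, the old to young ratio was 0.660 (0.474 to 0.898). Whether these cells of tag 2 carried the right tag was not tested. Lmnb2, the other B-type lamin gene (chr10:80901203-80918245, minus strand), was counted 125, 29, 94 and 92 times in tags 1 to 4, which is 5.18, 5.2, 6.29 and 5.71 CPM. At this depth no pair of groups differed in Lmnb2 beyond counting error, and the old to young interval ran from 0.646 to 1.51.

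Because the summed level of a culture mixes cells, fewer cells with a transcript and less of it per cell cannot be told apart in these values. Barcodes with 1 to 100 UMIs hold mostly free RNA. They gave 120 CPM (106 to 136) of Lmnb1, 478 CPM of Lmna and 25.8 CPM of Lmnb2. Hmgb2 there was at 203 CPM (184 to 223), Tmpo at 116 CPM, Lbr at 34.8 CPM and Sun2 at 16.2 CPM. All of these values were above the level in the cells of every group. Emd at 43.4 CPM, Zmpste24 at 47.7 CPM and Sun1 at 10.5 CPM were lower there than in any group. Free RNA is shared by all cells of the library, and its part in the values was not tested.

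All 3 inner nuclear membrane genes were higher with AngII than in young cells beyond counting error, and Lbr also in the cells labelled siPiezo1 against old cells. Lbr (chr1:181815335-181843046, minus strand), whose product binds lamin B and heterochromatin, was at 26.7 CPM (24.7 to 28.8), 23.3 CPM (19.5 to 27.7), 30.3 CPM (27.6 to 33.3) and 32.4 CPM (29.7 to 35.3) in tags 1 to 4. It was the member with the highest ratio of the cells labelled siPiezo1 to old cells, 1.39 (1.15 to 1.70), and its old to young ratio was 0.873 (0.717 to 1.06). Where the called tag had to be at least 3 times the next, the siPiezo1 to old ratio of Lbr was 1.84 (1.28 to 2.70) on 179 old cells. In cells with Y-linked but no Xist UMIs its old to young ratio was 0.537 (0.304 to 0.885).

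Emd (chrX:74254687-74261548, plus strand) encodes emerin, a LEM-domain protein that binds lamins and chromatin. It was at 53.3 CPM (50.4 to 56.3), 51.5 CPM (45.7 to 57.8), 62.9 CPM (58.9 to 67.0) and 54.1 CPM (50.5 to 57.8) in tags 1 to 4, so the AngII cells stood above the other 3 groups, whose intervals overlap. Their ratio to young cells was 1.18 (1.08 to 1.28). Tmpo (chr10:91147571-91181315, minus strand) encodes the LAP2 proteins, whose isoforms the counts do not separate. It was at 81.7 CPM (78.1 to 85.4) in young cells and at 91.6 CPM (83.8 to 99.9), 98.4 CPM (93.5 to 104) and 95.1 CPM (90.4 to 99.9) in tags 2 to 4. Young cells were thus lowest, with ratios of 1.12 (1.02 to 1.24) for old and 1.20 (1.13 to 1.29) for AngII cells, and the other 3 groups did not differ from each other beyond counting error. The order of old and young cells in Tmpo rested on which cells were counted. Under 8 alternative choices of cells or totals their ratio ran from 0.809 to 1.14, with 6 on the same side of 1.

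The SUN genes were counted at low levels. Sun1 (chr5:139200637-139249840, plus strand), which spans the inner membrane and holds nesprins across it, was at 11.6, 13.1, 15.2 and 12.5 CPM in tags 1 to 4. Only the AngII to young ratio of Sun1, 1.31 (1.09 to 1.57), was beyond counting error among the 6 pairs of groups. Sun2 (chr15:79724070-79742536, minus strand), its paralogue, was at 10.0, 9.14, 9.37 and 10.8 CPM, and no pair of groups differed beyond counting error.

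Of their partners in the outer membrane, the nesprins, Syne1 and Syne3 differed more between old and young cells than the SUN genes did. Syne1 (nesprin-1, which binds actin) was at 208, 158, 188 and 203 CPM in tags 1 to 4, with an old to young ratio of 0.757 (0.704 to 0.813) and a siPiezo1 to old ratio of 1.29 (1.20 to 1.39). Syne3 (nesprin-3, which reaches intermediate filaments through plectin) was at 12.6, 4.66, 7.57 and 3.85 CPM, with an old to young ratio of 0.370 (0.238 to 0.553). Syne2 (nesprin-2) was at 25.7, 26.7, 31.3 and 30.9 CPM. In short, old cells held fewer Syne1 and Syne3 transcripts per UMI than young cells, whereas Syne2 was close in both. Syne4 had 1 to 4 UMIs per tag, Sun3 at most 1 and Spag4 1.66 to 2.98 CPM, while Sun5 had 0 UMIs, which allows up to 0.124 to 0.538 CPM by tag.

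Zmpste24 (chr4:121059237-121098241, minus strand) encodes the protease that cuts farnesylated prelamin A to mature lamin A. It was at 66.4 CPM (63.2 to 69.7) in young cells, 63.3 CPM (56.9 to 70.3) in old cells, 80.0 CPM (75.5 to 84.7) with AngII and 62.2 CPM (58.4 to 66.2) in the cells labelled siPiezo1. As for Emd, the AngII cells stood apart, with a ratio to young cells of 1.21 (1.12 to 1.30), and the other 3 groups did not differ beyond counting error. Of the other 5 genes of prelamin A processing, the farnesyltransferase subunit Fnta (36.7 to 39.1 CPM) and the protease Rce1 (12.5 to 16.1 CPM) were within counting error in the 3 comparisons of old with young, AngII with young and siPiezo1 with old cells. Fntb, the other subunit, was at 9.0, 8.25, 11.9 and 8.82 CPM, with an AngII to young ratio of 1.32 (1.07 to 1.61). Icmt, the methyltransferase that acts after the first cut, was at 10.3, 17.9, 15.7 and 13.8 CPM, and Narf, a prelamin A-binding protein, at 10.9, 13.1, 7.23 and 14.1 CPM.

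Hmgb2 (chr8:57511907-57515999, plus strand), an abundant chromatin protein of dividing cells, was lowest in the AngII cells. It was at 177 CPM (172 to 182), 179 CPM (168 to 190), 133 CPM (127 to 138) and 198 CPM (191 to 205) in tags 1 to 4. The AngII to young ratio was 0.748 (0.709 to 0.790) and the siPiezo1 to old ratio 1.11 (1.03 to 1.19), whereas old and young cells were at a ratio of 1.01 (0.94 to 1.08). That last value rested on which cells were counted. In the Y-linked-only cells the old to young ratio of Hmgb2 was 0.621 (0.514 to 0.744), and with the called tag at least 3 times the next it was 0.703 (0.618 to 0.797). Mki67 and Top2a also differed between the whole cultures: their ratios were 1.27 and 1.18 for old to young, 0.892 and 0.876 for AngII to young, and 1.17 and 1.17 for siPiezo1 to old, and their part in the Hmgb2 ratios was not tested.

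**Figure D1:**
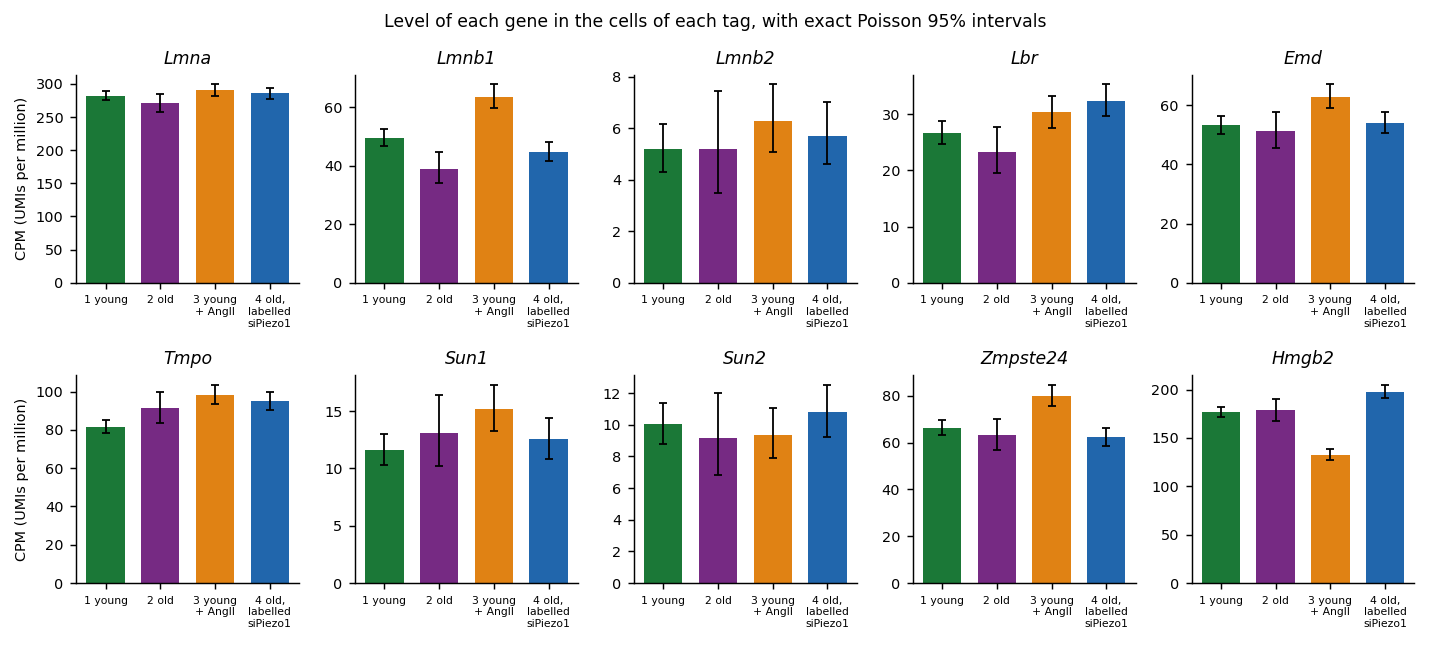
Levels of the 10 genes in the cells of each tag, as bars in UMIs per 1000000 UMIs (CPM), with exact Poisson 95% intervals of counting error. Each tag is 1 culture; Lmnb1 spans 39.1 to 63.7 CPM and Hmgb2 133 to 198 CPM, while Lmna lies between 270 and 290 CPM.

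None of the 10 genes was past 1.5-fold in any of the 3 comparisons of whole cultures. For old against young cells, 7.93% of the 8463 genes with at least 10 CPM were past 1.5-fold higher and 10.5% lower. With AngII against young cells the shares were 6.89% higher and 7.89% lower, and for the cells labelled siPiezo1 against old cells 1.8% higher and 1% lower. The median ratio of the 10 genes was 0.962 for old to young, beside 1.02 over all those genes. It was 1.19 beside 1.03 for AngII to young, where 6 of the 10 genes were higher and 1 lower beyond counting error (37% and 28% of the 8463 genes), and 1.08 beside 1.01 for siPiezo1 to old. The first and the second of these comparisons share the young cells. Tag 3 had a median of 0.224% mitochondrial UMIs per cell against 1.08% in tag 1, 1.84% in tag 2 and 1.86% in tag 4, and the part of this in the AngII values was not tested. With only cells of 1 to 20% mitochondrial UMIs, AngII to young ratios were 1.33 for Tmpo, 1.29 for Lbr and 0.861 for Hmgb2, and Lmnb2 was past 1.5-fold at 1.59, with an interval from just below 1 to 2.47.

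The larger differences lay between cells with and without Mki67 or Top2a UMIs. Cells with such UMIs were 35.8%, 37.0%, 41.3% and 40.4% of tags 1 to 4, and 34.8%, 31.1%, 33.4% and 35.2% once each cell was thinned to 5000 UMIs, which leaves out 747, 21, 136 and 114 shallower cells. Free RNA also held these transcripts, at 53.9 CPM of Mki67 and 121 CPM of Top2a, and no other cell type was at hand in which to read a background share. Cells with such UMIs were deeper, with medians of 8341.5 to 12473 UMIs by tag against 6039 to 9808 without.

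Hmgb2 differed most, from 55.4 CPM without to 338 CPM with in young cells, 32.8 to 380 CPM in old cells, 44.6 to 236 CPM with AngII and 34.3 to 391 CPM in the cells labelled siPiezo1. The ratio of the classes was 6.09 (5.63 to 6.60), 11.6 (9.48 to 14.3), 5.29 (4.72 to 5.95) and 11.4 (10.1 to 12.9) in tags 1 to 4. Thus the ratios of both cultures from old mice lay above those of both cultures from young mice, with intervals that do not overlap. The same split held for Lmnb1, at 2.86 (2.53 to 3.24), 4.64 (3.37 to 6.50), 2.40 (2.09 to 2.76) and 6.46 (5.27 to 7.98). Both splits were read at the full depth of each cell, where a deeper cell more readily shows a Mki67 or Top2a UMI. Cells without these UMIs had a median of 6039 UMIs in tag 1 and 9808 in tag 2. The part of depth in these ratios was not tested by tag. For Tmpo the ratios were 3.16 (2.87 to 3.49), 4.09 (3.34 to 5.04), 2.30 (2.06 to 2.56) and 4.47 (3.95 to 5.07), so the intervals of young and old cells overlap. For Lbr they were 2.35 (1.99 to 2.77), 3.22 (2.19 to 4.82), 2.31 (1.89 to 2.82) and 2.95 (2.43 to 3.59), and all 4 overlap. Lmnb2 gave 2.54 (2.02 to 3.22) over the 4 tags, and 1.47 (0.983 to 2.27) where the cells without were limited to thinned cells lacking UMIs of 19 division and S phase genes.

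The other 5 genes differed less between the classes. Over the 4 tags the ratio was 1.27 for Emd, 1.21 for Sun2, 1.09 (1.06 to 1.13) for Lmna, 1.08 for Sun1 and 1.01 (0.953 to 1.08) for Zmpste24. Emd was above 1 beyond counting error in every tag, from 1.17 (1.03 to 1.34) with AngII to 1.37 (1.08 to 1.74) in old cells. Sun2 lay on both sides of 1 beyond counting error, from 0.674 (0.468 to 0.962) with AngII to 1.55 in the cells labelled siPiezo1. Of the 10 genes, 5 were past 1.5-fold higher and 0 lower in cells with Mki67 or Top2a UMIs, while 6.87% of all genes with at least 10 CPM were higher and 0.626% lower. The median ratio was 1.91 for the 10 genes and 1.02 for all. The study's cluster markers already listed Hmgb2 and Tmpo together with Mki67 and Top2a, and the members were chosen with earlier results known. This count and median are therefore no independent result about lamina genes, and Hmgb2 is not a lamina gene. Cells with these UMIs held 44.4% of all UMIs but 85.4% of those of Hmgb2, 72.4% of Lmnb1, 72.2% of Tmpo, 67.2% of Lbr and 67.1% of Lmnb2, against 46.7% of Lmna and 44.8% of Zmpste24.

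**Figure D2:**
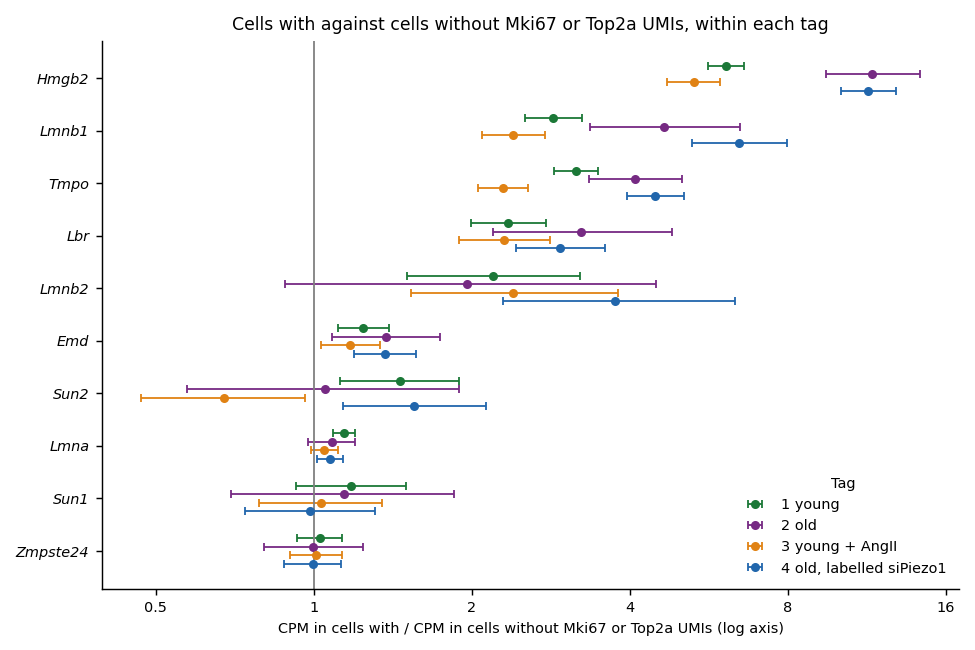
Ratio of CPM in cells with Mki67 or Top2a UMIs to CPM in cells without them (log axis), for the 10 genes in each tag. Points are ratios and bars exact binomial 95% intervals of counting error; Hmgb2 lies at 5.29 to 11.6, with tags 2 and 4 to the right of tags 1 and 3, and Zmpste24 lies at about 1 in every tag.

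Thinned cells were then ranked by their UMIs of Mki67 plus Top2a, in ranges of 0 (3716 cells), 1 to 2 (1091 cells) and 3 to 9 (818 cells). A range of 10 or more held 27 cells and is left out of the levels here. Hmgb2 was at 60.5, 278 and 507 CPM in these ranges over the 4 tags, Lmnb1 at 29.4, 73.0 and 110 CPM, Tmpo at 51.1, 119 and 200 CPM, and Lbr at 19.1, 39.6 and 55.0 CPM. All of them were higher in each further range, and so was Emd, at 49.2, 66.9 and 74.8 CPM. Lmna was at 273, 301 and 300 CPM and Zmpste24 at 67.2, 72.0 and 66.7 CPM, with no such order. In the range of 3 to 9, Hmgb2 was at 477, 651, 366 and 588 CPM in tags 1 to 4, so the low value with AngII was there among the cells with most division transcripts as well. Lmnb1 in that range was at 107, 80.0, 130 and 111 CPM.

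**Figure D3:**
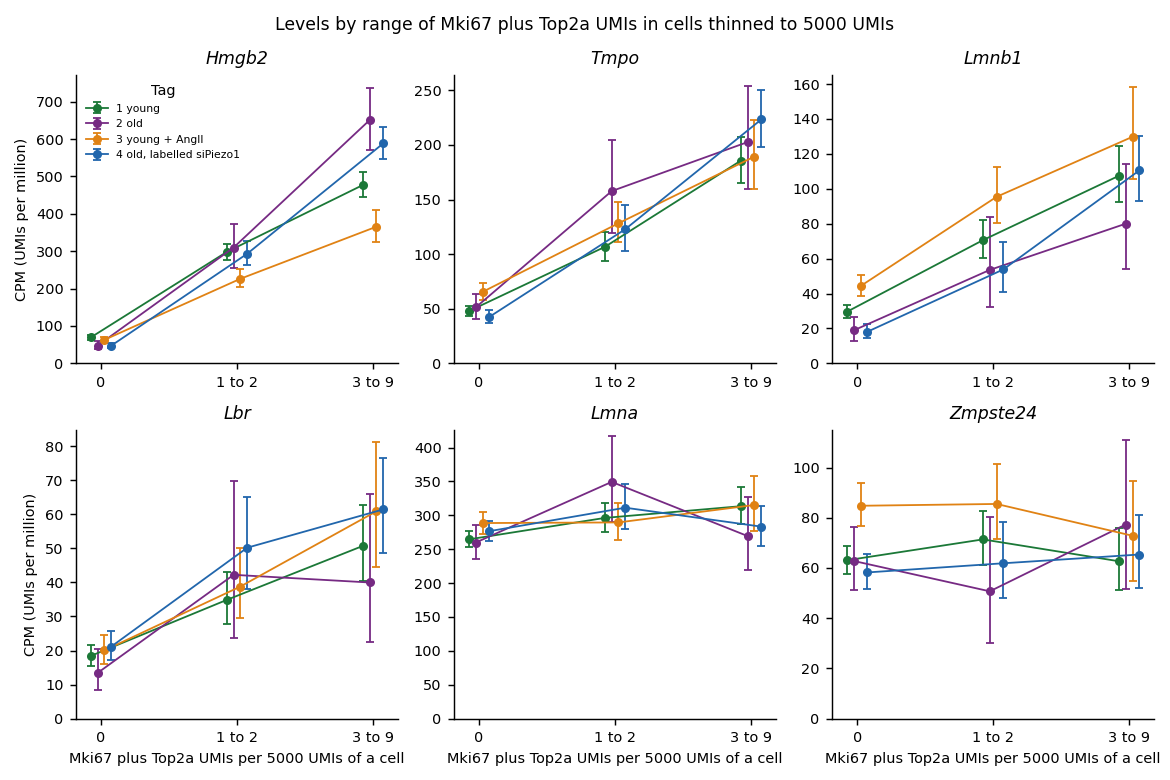
Levels in CPM of 6 of the genes in cells thinned to 5000 UMIs, by range of Mki67 plus Top2a UMIs per cell (horizontal axis) and by tag (colour), with exact Poisson 95% intervals. In the range of 3 to 9, Hmgb2 spans 366 CPM in tag 3 to 651 CPM in tag 2, and at 0 Lmnb1 spans 18.1 CPM in tag 4 to 44.3 CPM in tag 3.

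Within cells that had no Mki67 or Top2a UMI, the groups lay further apart in Lmnb1 than they did as whole cultures. Lmnb1 was at 27.5 CPM (24.8 to 30.5) in young cells, 15.5 CPM (11.5 to 20.4) in old cells, 38.8 CPM (34.6 to 43.3) with AngII and 12.7 CPM (10.5 to 15.4) in the cells labelled siPiezo1. At the full depth of each cell, both cultures from old mice were below both from young mice, with no overlap. The old to young ratio was 0.561 (0.409 to 0.755), the AngII to young ratio 1.41 (1.21 to 1.64), and the siPiezo1 to old ratio 0.825 (0.586 to 1.18), which is within counting error. The ratio of the cells labelled siPiezo1 to the AngII cells was 0.329 (0.262 to 0.410). With the called tag at least 3 times the next, the siPiezo1 to old ratio was 0.438 (0.247 to 0.774), below 1 beyond counting error. Thinned to 5000 UMIs, the old to young ratio was 0.639 (0.425 to 0.933), and among the 72 old cells with only Y-linked transcripts it was 0.740 (0.438 to 1.18). In the thinned cells without these UMIs, Lmnb1 was at 29.6 CPM (25.9 to 33.6) in young cells and 18.9 CPM (12.8 to 26.8) in old cells, so these intervals overlap.

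Hmgb2 in the cells without these UMIs was at 55.4 CPM (51.6 to 59.5), 32.8 CPM (26.8 to 39.6), 44.6 CPM (40.1 to 49.4) and 34.3 CPM (30.6 to 38.5) in tags 1 to 4. The old to young ratio was 0.591 (0.478 to 0.725), unlike the whole cultures, where it was close to 1, and in cells with the UMIs it was 1.13 (1.04 to 1.21). Free RNA held Hmgb2 at 203 CPM, and its part in these levels was not tested. Tmpo was at 42.3, 39.9, 61.7 and 36.6 CPM, with an AngII to young ratio of 1.46 (1.29 to 1.65), while Lbr was at 16.9, 12.1, 18.9 and 17.1 CPM. Lmnb1 and Hmgb2 were the 2 members past 1.5-fold in old against young cells of this class, both lower, where 9.48% of all genes were past it higher and 11.6% lower. With AngII against young cells 0 members were past it, and 8.38% of all genes were higher and 8.57% lower. For the cells labelled siPiezo1 against old cells 0 members were past it, with 2.84% of all genes higher and 2.01% lower. The median ratios of the 10 genes in this class were 0.954, 1.21 and 1.0 for these comparisons, beside 1.02, 1.04 and 1.01 over all genes.

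In a stricter class, chosen after these values were seen, Lmnb1 was again lower in old than in young cells beyond counting error, while few Hmgb2 UMIs were left. It holds thinned cells with no UMI of 19 genes of division and S phase, which leaves 577, 140, 310 and 423 cells in tags 1 to 4. Lmnb1 there was at 27.0 CPM (21.4 to 33.7) in young cells, 8.57 CPM (3.15 to 18.7) from 6 UMIs in old cells, 32.9 CPM (24.5 to 43.3) with AngII and 10.9 CPM (6.89 to 16.3) from 23 UMIs in the cells labelled siPiezo1. The old to young ratio of Lmnb1 was 0.317 (0.113 to 0.722), whereas the AngII to young ratio, 1.22 (0.838 to 1.75), was within counting error. Hmgb2 was at 30.8, 28.6, 30.3 and 25.1 CPM in this class, with an old to young ratio of 0.926 (0.540 to 1.52) that rests on 20 UMIs in old cells and whose interval holds both 1 and the 0.591 of the wider class. The AngII to young ratio was 1.56 (1.18 to 2.06) for Emd and 1.17 (1.03 to 1.31) for Lmna, both beyond counting error.

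The balance of A-type and B-type lamin transcripts followed Lmnb1. For each Lmnb1 UMI there were 5.69 (5.35 to 6.06), 6.92 (6.00 to 8.01), 4.56 (4.25 to 4.90) and 6.39 (5.90 to 6.92) Lmna UMIs in all cells of tags 1 to 4. In cells with Mki67 or Top2a UMIs the count was 3.86 (3.57 to 4.17), 3.94 (3.32 to 4.70), 3.20 (2.93 to 3.50) and 3.60 (3.29 to 3.95), where only the intervals of young cells and AngII cells do not overlap. In cells without them it was 9.67 (8.69 to 10.8), 16.9 (12.7 to 23.0), 7.33 (6.51 to 8.28) and 21.7 (17.9 to 26.4), so the groups from old and young mice separated in this class at the full depth of each cell.

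**Figure D4:**
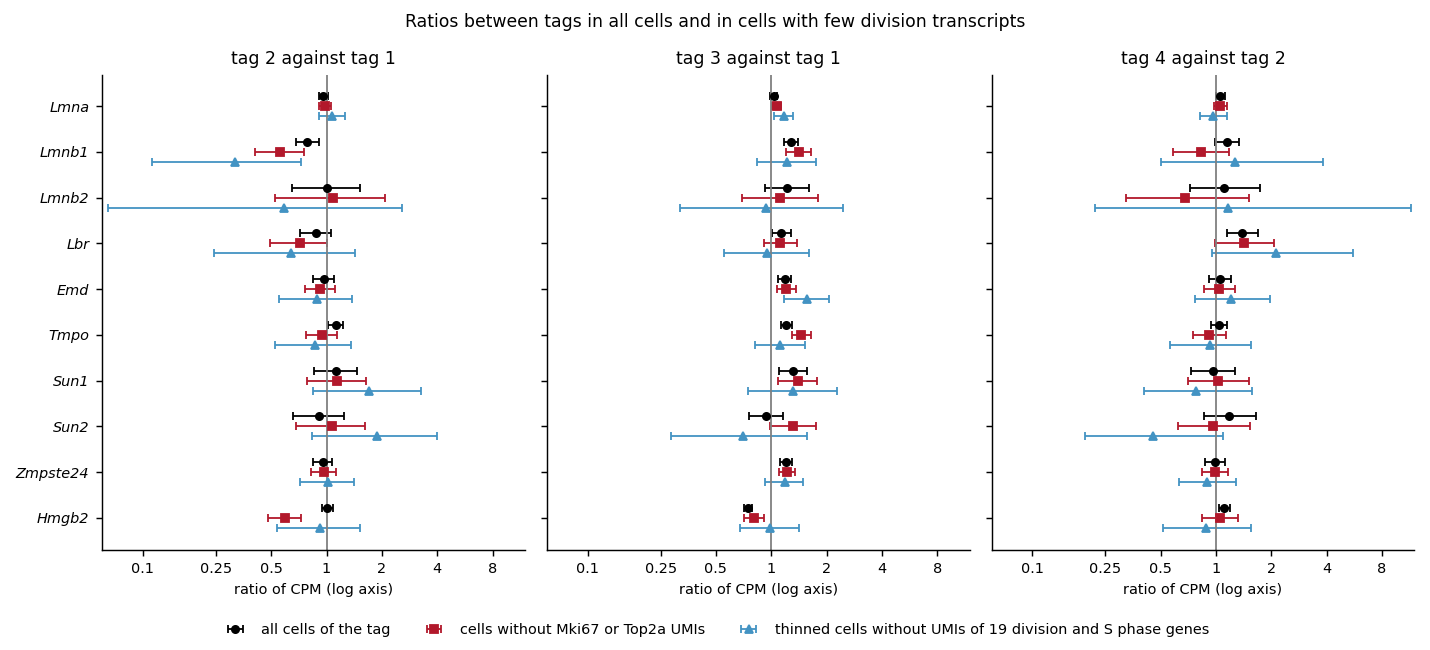
Ratios of CPM between tags (log axis) for the 10 genes in all cells (circles), in cells without Mki67 or Top2a UMIs (squares) and in the stricter class of thinned cells without UMIs of 19 division and S phase genes (triangles), with exact binomial 95% intervals of counting error. For tag 2 against tag 1, Lmnb1 lies at 0.788, 0.561 and 0.317 and Hmgb2 at 1.01, 0.591 and 0.926.

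Related gene lists were counted in the same way, past 1.5-fold for old against young cells. Among the 9 other inner nuclear membrane and LEM genes with at least 10 CPM, 3 were lower and 0 higher: Tor1aip1 (LAP1, a lamin-binding activator of torsin) at a ratio of 0.299, Tor1aip2 at 0.524 and Tmem43 at 0.551, while Lemd2 at 1.15 and Lemd3 at 1.14 were highest. With AngII against young cells the ratio of Tor1aip1 was 0.567. Of 9 nuclear pore genes, 0 were past it, from Nup205 at 0.978 and Tpr at 1.04 to Nup107 at 1.29 and Nup153 at 1.35. Of the 6 other HMG genes, 3 were higher, among them Hmgb3 at 2.35 and Hmga2 at 1.99, with Hmgn2 at 0.919 and Hmgb1 at 1.05 lowest, beside 1.01 for Hmgb2. Of 7 chromatin factors that bind the lamina or its silent chromatin, 1 was higher, Ezh2 (the H3K27 methyltransferase) at 1.55, followed by Suv39h1 at 1.38, while Zbtb7b at 0.945 and Cbx5 at 1.17 were lowest. Of 2 LINC genes besides the members with at least 10 CPM, 0 were past it, and of 4 prelamin A processing genes 1 was higher, Icmt at 1.74.

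Lists of the cell cycle did not follow 1 direction. Of 8 genes of lamin kinases and division, 1 was lower in old than in young cells, Ccnb2 (cyclin B2) at 0.608, next to Ccnb1 at 0.760, while Aurkb at 1.02 and Birc5 at 0.951 were highest. With AngII against young cells 5 of these 8 were lower and 0 higher, led by Ccnb2 at 0.261 and Cenpf at 0.392, beside the lower Hmgb2 in the same cells. Of 8 S phase genes 0 were past 1.5-fold in old cells, from Tyms at 0.709 and Mcm5 at 0.876 to Rrm2 at 1.36 and Mcm2 at 1.48, and with AngII 3 were higher. Of 6 arrest genes 2 were lower in old cells, Cdkn1b at 0.523 and Cdkn2b at 0.554, whereas Rb1 at 1.12 and Cdkn2a, the p16 and p19ARF gene, at 1.17 were highest. Of the 4 VSMC markers with at least 10 CPM all 4 were higher in old cells, from Acta2 at 1.5 and Myl9 at 1.66 to Tagln at 2.30 and Cnn1 at 2.43. The study instead describes its young single cells as rich in Acta2, Myl9 and Tagln. Its qRT-PCR gave less ACTA2, MYH11 and TAGLN in old cells. For AngII against young cells it has lower α-actin and higher transgelin, and here Acta2 was at 0.777 and Tagln at 1.68. Whether the tag names are right was not tested. For the cells labelled siPiezo1 against old cells, 0 genes of these lists with at least 10 CPM were past 1.5-fold other than the VSMC markers. All 4 of those markers were lower, with Acta2 at 0.306, while the study states that siPiezo1 left the cytoskeleton of old cells unaltered. Among genes below 10 CPM, the inner nuclear membrane gene Nrm was at 2.29 (1.08 to 5.59). Between cells with and without Mki67 or Top2a UMIs, 8 of 8 division genes and 8 of 8 S phase genes were past it higher, with median ratios of 10.6 and 3.56, so Hmgb2 at 7.30 lay between them and Lmnb1 at 3.28 and Tmpo at 3.24 lay near the S phase genes. Also higher were 4 of 9 pore genes (Nup107 at 2.50), 4 of 7 chromatin factors (Ezh2 at 3.52), 3 of 6 HMG genes (Hmgb3 at 4.39), Nemp1 at 2.14 and Syne2 at 1.84. Of all genes with at least 10 CPM, 6.87% were past it higher. The split was itself made by 2 division genes, so the ratios of division and S phase genes are in part built into it.

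Over 12 groups made of the 4 tags and the 3 ranges of division UMIs, the genes whose log2(CPM + 1) was most like that of Hmgb2 were Tpx2, Prc1 and Birc5, each at a Pearson r of 0.993. For Tmpo they were Dek and Dbf4 at 0.983 and Nudc at 0.982. Those most like Lmnb1 were Ran at 0.978, Rrm1 at 0.974 and Usp1 at 0.973, and those most like Lbr were Ssrp1 at 0.958, Fam111a at 0.955 and Tfdp1 at 0.954. For Emd the leading gene was Tipin at 0.954, for Zmpste24 Frrs1 at 0.905 and for Lmna Birc6 at 0.796. Between members, r was highest for Hmgb2 and Tmpo, at 0.971, and it was 0.914 for Lmnb1 and Tmpo and 0.475 for Lmna and Lmnb1. These values describe 12 points that share 1 library and 4 cultures. The ranges were set by Mki67 plus Top2a UMIs, so a high r with division genes is in part built into the groups. With a 4th range of 1 to 18 cells per tag included, r over 16 groups was 0.845 for Hmgb2 and Tmpo and 0.359 for Lmnb1 and Tmpo, and the leading genes differed from those above. For Hmgb2 they were Prc1 at 0.984, Top2a at 0.981 and Tpx2 at 0.976. Top2a itself helped set the ranges, so its r says nothing apart from the grouping. Lmnb1 was most like Tyms at 0.968, Hat1 at 0.964 and Usp1 at 0.963. For Lbr the closest were Usp1 at 0.972, Pbx3 at 0.971 and Rad50 at 0.962, and for Tmpo Nudc at 0.950, Tipin at 0.942 and Diaph3 at 0.939. The r of the 3 closest genes was 0.992 to 0.996 for Emd (Srsf2, U2af1, Trim28), 0.997 for Zmpste24 (Hprt, Atp2a2, Zrsr2) and 0.840 to 0.878 for Lmna (Cox17, Cox5b, Sumo3). In the 4th range Zmpste24 had 0 UMIs in tag 2 (2 cells) and tag 3 (1 cell), and Emd had 0 in tag 3. The part of such zeros in the r over 16 groups was not tested, and over 12 groups the highest r was 0.954 for Emd and 0.905 for Zmpste24. Over 16 groups the r of the 3 closest genes was 0.921 to 0.925 for Lmnb2 (Sf3a3, Zdhhc3, Pitpnb), 0.928 to 0.946 for Sun1 (Pdia6, Mbnl2, Dbi) and 0.914 to 0.932 for Sun2 (Lsm12, Psma4, Mast2). Zeros in the 4th range were also found for Lmnb2 in tags 1 to 3, Sun1 in tags 2 and 4, and Sun2 in tags 1 and 2. Lmnb1 and Lbr had 0 UMIs there in tag 2. Over 12 groups the closest genes were others, at 0.814 to 0.830 for Lmnb2, 0.732 to 0.766 for Sun1 and 0.858 to 0.878 for Sun2.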

How the data were processed

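The authors deposited unfiltered UMI counts per gene and hashtag for every barcode of 1 pooled library (10x 3′ v3.1), made with Cell Ranger 4 per the file headers. Seurat is named in the submitters' notes without a version, and neither the build nor the aligner settings are given in the sources used here. Coordinates are those of the GENCODE annotation of GRCm38 and promoter windows those of RefSeq. Cells, hashtag cutoffs and groups are as described above. Cells with no tag or several tags entered no comparison. Leaving out cells with more than 1 tag was the treatment of doublets, with an alternative that left out the deepest 10% of cells. Genes' UMIs were summed per group and divided by all gene UMIs. Levels carry exact Poisson intervals and ratios exact binomial intervals, both at 95% and for counting error only. Thinning drew 5000 UMIs per cell without replacement. The ratio and its interval were run on simulated Poisson counts, the model that the intervals assume. Spread between cells or cultures beyond that model was not simulated. Python 3.11.15, numpy 2.4.6, scipy 1.17.1, pandas 2.3.3 and matplotlib 3.10.9 were used. How reads of genes with near-identical copies, such as Hmgb1 and Hmgb2 retrocopies, were counted is not stated, so their levels are uncertain.

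The members and gene lists were chosen with earlier results of these data known. Named were all 10 members, Mki67, Top2a, the nesprins and prelamin A processing genes, for each other list the 2 genes with the highest and the 2 with the lowest old to young ratio, and for likeness the 3 closest genes with at least 50 CPM over 16 groups. Other genes named (Tmem43, Nemp1, Cenpf and the leading genes of other comparisons or of 12 groups) were picked after their values were seen. Alternatives were other folds, hashtag rules, UMI minimums, mitochondrial limits, denominators, thinning, cells of 1 sex and other genes for the division class.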

Additional observations from a re-analysis of the deposited data

How the results depend on the processing

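No paired analysis was possible because each group was 1 culture and no test was made. The count of members past 1.5-fold between cells with and without Mki67 or Top2a UMIs was 4 to 6 under all alternatives, beside 5. For old against young cells (0 members) it was 1 with a lower fold, 1 with the called tag at least 3 times the next and 3 in cells that had Y-linked UMIs but no Xist. With AngII against young cells (0) these were 3 with a lower fold, 1 with 1 to 20% mitochondrial UMIs and 1 with Y-linked UMIs only. For the cells labelled siPiezo1 against old cells (0) they were 1 with a lower fold, 2 with the tag rule, 1 with raised cutoffs, 1 thinned and 3 with Y-linked UMIs only. In cells without Mki67 or Top2a UMIs, the old against young count (2) was 3 with a lower fold, 1 thinned, 1 with the mitochondrial limits, 1 with Cdk1 or Birc5 in place of these genes and 5 in the stricter class of cells. Lmnb1 was the gene left when thinned, with the mitochondrial limits and with Cdk1 or Birc5, where Hmgb2 was at a ratio of 0.685, 0.732 and 0.856. AngII against young (0) gave 4 with a lower fold, 2 with Y-linked UMIs only, 2 with Cdk1 or Birc5 and 1 in the stricter class. The siPiezo1 to old count (0) was 2 with a lower fold, 2 with the tag rule, 2 with raised cutoffs, 1 without the deepest 10% of cells, 2 thinned, 4 with Y-linked UMIs only, 1 with Cdk1 or Birc5 and 2 in the stricter class. In that sex-limited set, old cells without Mki67 or Top2a UMIs numbered 72 and held 0 Lmnb2 UMIs, so Lmnb2 entered those counts without a finite ratio. The cause of these moves was not tested. No share over all genes was set beside the counts under alternatives, so they are not read as results about the members. Ratios of single members moved by more than their interval in 15 of 80 pairs of member and alternative for old against young, 8 of 80 for AngII and 10 of 80 for siPiezo1, in 29 of 120 for cells with against without Mki67 or Top2a UMIs, and in 11 of 120, 11 of 120 and 10 of 119 for the groups within cells without them. Requiring 2 UMIs or both genes changes only the class with UMIs, so it leaves the values without them as they were. Tag 2 held the fewest cells, which set the precision of every comparison with old cells. The median UMIs of a cell's highest hashtag were 364, 76, 113 and 67 in tags 1 to 4, beside cutoffs of 36, 52, 61 and 41. Calls of tags 2 to 4 thus lay nearer their cutoffs than those of tag 1, and the share of wrong calls was not tested.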

Other observations

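The 5307 cells with no hashtag above its cutoff belong to no group. Their Hmgb2 was at 244 CPM (239 to 249), above every tagged group, and their Tmpo at 113 CPM (110 to 117) was too. Mki67 was at 76.1 CPM and Top2a at 193 CPM in these cells. Lmnb1 at 55.7 CPM and Lmna at 295 CPM were within or near the range of the tagged groups. In cells without a tag, those with Mki67 or Top2a UMIs were also set against those without. They held 8.44 times the Hmgb2, 3.80 times the Lmnb1, 3.55 times the Tmpo, 2.52 times the Lbr and 2.51 times the Lmnb2. The ratio was 1.12 (1.03 to 1.21) for Zmpste24 and 0.963 (0.8 to 1.16) for Sun1. These cells share the library and the rule of the split with the tagged cells, so they are not an independent check. The share of all genes past 1.5-fold in them was not counted. The 1068 cells with more than 1 tag held 161 CPM of Hmgb2 and 48.2 CPM of Lmnb1.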
